A study of Homo sapiens with 2 samples.

Results

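The 10 genes described here make, elongate and desaturate fatty acids or encode a factor that switches many of these enzymes on: ACLY, ACACA, FASN, ELOVL6, ELOVL1, ELOVL5, SCD, FADS1, FADS2 and SREBF1. They were chosen by name, and their probes are the 13 of 30968 on the array whose annotation gives exactly 1 of these symbols. Of the 10 genes, 8 were detected in both groups and could be compared, and ACACA and FADS2 could not. The exposed group was HaCaT, an immortal human keratinocyte line that arose without a transforming virus, kept in 0.5 µg/ml arsenic trioxide through passage 22, and the passage control was the same line carried to the same passage number without the agent. The design text counts 4 technical replicates of RNA per group and 3 arrays for each of these, and the authors deposited 1 combined intensity, error and detection p per probe and group. Each group was thus 1 culture line, so the effect of arsenic trioxide and differences that arose by chance in culture cannot be told apart, and no spread between arrays could be computed. The deposited p-values can reflect only technical variation and none between independent cultures, and how they were made is not given in the sources used here. Intensities were lower in exposed cells in general, with a median over all probes of 19.3 in exposed cells, against 25.9 in the passage control, and ratios are therefore given relative to the median probe.

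In this pathway ATP citrate lyase turns citrate from mitochondria into cytosolic acetyl-CoA, acetyl-CoA carboxylase converts that into malonyl-CoA, and fatty acid synthase joins the units into palmitate. Elongases then lengthen the chain and desaturases place double bonds, which yields the fatty acids of membranes, storage lipids and the ceramides of the epidermal barrier. The transcription factor SREBP-1, the product of SREBF1, is held in the endoplasmic reticulum as a precursor and, once cleaved, activates many of these genes, while its relative SREBP-2 acts mainly on cholesterol synthesis. In skin, keratinocytes make much of their own fatty acid.

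SREBF1 fell and ACLY rose in exposed cells, and no other member passed the test. The brightest SREBF1 probe read 11328 in exposed cells, against 21788 in the passage control, and ACLY read 1426 in exposed cells, against 1263 in the passage control. Relative to the median probe, SREBF1 was 1.43-fold lower (log2 ratio -0.51 ± 0.11) and ACLY 1.52-fold higher (0.61 ± 0.15). The adjusted deposited p-value was 3.70e-05 for SREBF1 and 0.0195 for ACLY. On the brightest probe of each gene, the synthase gene FASN, the elongase genes and the desaturase genes SCD and FADS1 lay between -0.058 and 0.18 on the same scale. The second probe of the elongase gene ELOVL5 lay outside that range, at 0.40 ± 0.17.

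A log2 ratio here is that of the deposited intensities, exposed over passage control, minus its median of -0.43 across all 9915 probes that passed detection in both groups. The value after ± is the deposited error for an intensity and the error propagated from both deposited errors for a log2 ratio, and is not an SD. Calls used the p-values that the authors' deposited table gives, adjusted by the Benjamini-Hochberg method over all 7680 genes tested, with a limit of 0.05. By this rule 5.68% of all genes tested were called, 3.11% as higher and 2.57% as lower in exposed cells, that is 239 and 197 genes, or 188 and 248 if ratios are not centred. Of the 8 members tested 1 was called higher and 1 lower. Among genes above the median brightness 9.05% were called, and 5 of the members, both called ones included, belong to that class. The median log2 ratio over the 8 members was 0.12, against 0.0054 over all 7690 genes measured. In the order of all measured genes SREBF1 stood 378th from the lowest ratio and ACLY 249th from the highest.

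**Figure D1:**
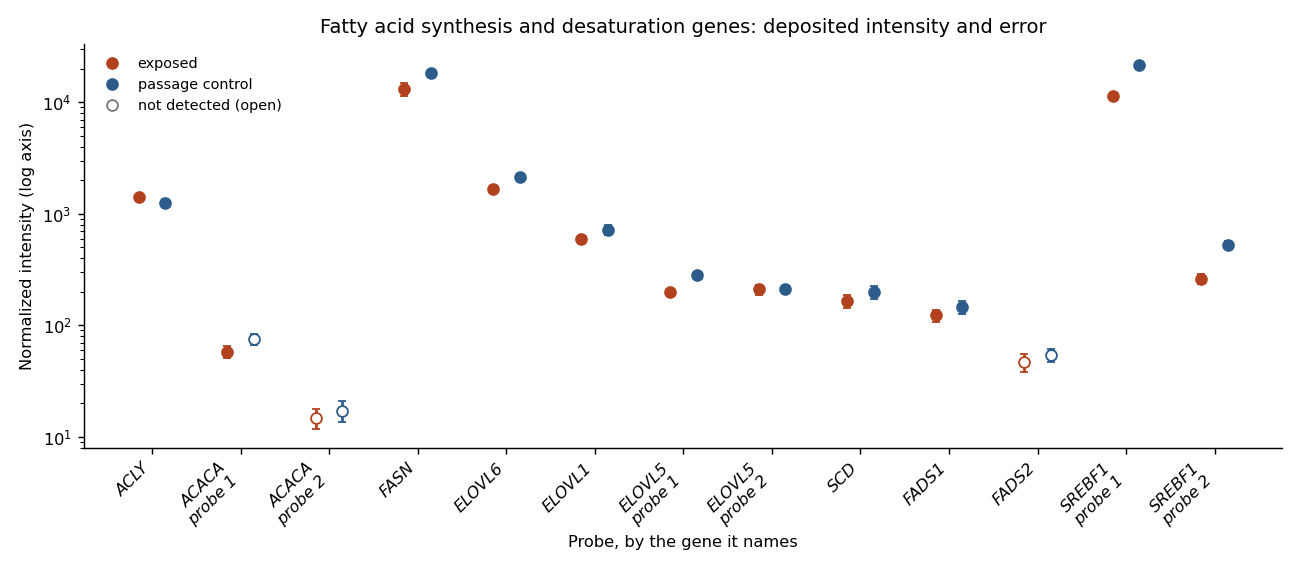
Normalized intensity of the 13 probes on a log axis, exposed cells (red) left of passage control cells (blue); bars are the deposited errors and open symbols mark probes not detected at a detection p below 0.05. ACLY is the probe with the higher reading in exposed cells, and the other 12 read lower there, SREBF1 by the widest margin on both of its probes.

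The regulator SREBF1 (chromosome 17) was read by 2 probes. The first read 11328 ± 682 in exposed cells, against 21788 ± 1055 in the passage control. The second read 263 ± 27.0 in exposed cells, against 529 ± 43.8 in the passage control. On both probes the ranges of 1 error around the intensities were apart, and they stayed apart after the passage control values were scaled down by the median shift. The second probe had a log2 ratio of -0.58 ± 0.19, close to that of the first. Before centring the ratios were -0.94 and -1.01, or 1.92-fold and 2.01-fold lower. In the authors' deposited table both probes had a log2 ratio of -0.57. The p-value of the second probe in the authors' deposited table was 0.0190, which did not pass when adjusted over all probes with a p-value (0.231). The annotation lists the same transcripts for both probes, so forms of SREBP-1 that start at different promoters were not told apart here.

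ACLY (chromosome 17), which encodes ATP citrate lyase, had 1 probe. It read 1426 ± 90.9 in exposed cells, against 1263 ± 103 in the passage control. As deposited, these ranges overlap, and the log2 ratio before centring was 0.18. After scaling by the median shift the passage control value was 938 with an error of 76.4, and the ranges did not overlap. The authors' deposited table gave a log2 ratio of 0.56, closer to the centred value. The size of the ACLY rise rests on the scaling, and its direction was the same with and without it.

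**Figure D2:**
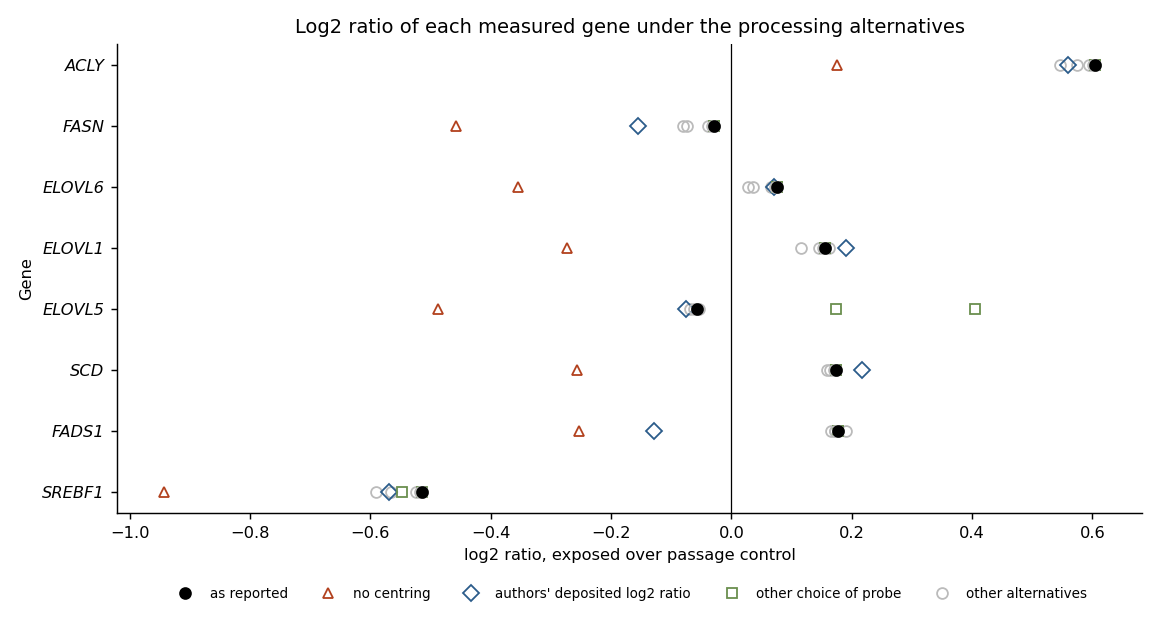
Log2 ratio of exposed over passage control cells for the 8 measured genes under each way of processing: as reported (black), without centring (red triangles), from the authors' deposited table (blue diamonds), with another choice of probe (green squares) and under the other alternatives (grey). ACLY stays right of 0 and SREBF1 left of 0 throughout. FASN, which was not called, also stays left of 0, at -0.028 where it is nearest. ELOVL6, ELOVL1, ELOVL5, SCD and FADS1 lie on either side of 0 depending on the processing.

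The stretches of 250 bases before the start sites of the called genes ACLY and SREBF1, and of SCD as a textbook SREBP-1 target that was not called, are printed here from RefSeq's table for the build GRCh38.p14, to show which of the elements known to work with SREBP these promoters carry. Where a gene had several starts, the one farthest upstream in that table was used. Capitals mark the GC box GGGCGG, which Sp1 proteins bind, and the CCAAT box CCAAT, which NF-Y binds, on either strand.
ACLY (chr17:41919023-41919272, minus strand): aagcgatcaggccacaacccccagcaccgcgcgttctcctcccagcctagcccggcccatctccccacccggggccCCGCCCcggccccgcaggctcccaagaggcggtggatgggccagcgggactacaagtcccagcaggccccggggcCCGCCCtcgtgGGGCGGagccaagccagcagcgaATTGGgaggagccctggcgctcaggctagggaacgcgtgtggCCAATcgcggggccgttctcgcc
SREBF1 (chr17:17836987-17837236, minus strand): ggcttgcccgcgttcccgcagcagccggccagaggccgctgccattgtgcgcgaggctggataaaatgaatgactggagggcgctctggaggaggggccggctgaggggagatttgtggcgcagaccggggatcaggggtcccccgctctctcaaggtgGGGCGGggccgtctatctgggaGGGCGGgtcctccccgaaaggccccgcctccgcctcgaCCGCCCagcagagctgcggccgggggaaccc
SCD (chr10:100346983-100347232, plus strand): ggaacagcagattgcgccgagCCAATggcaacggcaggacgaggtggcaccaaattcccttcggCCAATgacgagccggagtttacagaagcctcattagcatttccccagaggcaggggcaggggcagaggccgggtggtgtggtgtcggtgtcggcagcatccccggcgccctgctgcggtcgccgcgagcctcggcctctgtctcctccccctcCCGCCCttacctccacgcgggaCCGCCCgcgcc
The ACLY stretch holds 2 CCAAT boxes and 3 GC boxes, the SREBF1 stretch no CCAAT box and 3 GC boxes, and the SCD stretch 2 of each. In RefSeq's list of 35116 such stretches, 32.01% hold a CCAAT box and 42.6% a GC box. The sterol regulatory element, searched as TCACNCCAC on both strands, was found in none of the 9 members with an entry and in 0.883% of all stretches. FASN had no entry. With so rare a match, finding none does not show that these genes lack sites for SREBP. No searched motif overlapped another in the 3 stretches printed. Among those 9 members, 4 had a CCAAT box and 7 a GC box in the stretch at the start farthest upstream. Other starts of ACACA held a CCAAT box and another start of FADS2 a GC box. The percentages above count every listed start, so they are not a like measure for these counts. These are matches of letters in a short window.

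ACACA (chromosome 17), which encodes acetyl-CoA carboxylase of the cytosol, was not measured well enough for a ratio. Its brighter probe read 57.8 in exposed cells, where it was detected with a detection p of 0.0342, and 75.0 in passage control cells, where it was not detected. The lowest intensity among detected probes was 54.4 in exposed cells, against 81.7 in the passage control, so both readings lay near the floor. The authors' deposited table gave it a log2 ratio of 0.16 with a p-value of 0.844. The second ACACA probe was detected in neither group. FASN (chromosome 17), the fatty acid synthase gene, read 13243 ± 1788 in exposed cells, against 18191 ± 1239 in the passage control. Its log2 ratio was -0.028 ± 0.22, or -0.16 in the authors' deposited table. Before centring it was -0.46, close to the median shift, and FASN was not called (adjusted p 0.999).

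Of the elongase genes ELOVL6 (chromosome 4), which encodes an elongase of saturated and monounsaturated chains, read 1662 ± 99.4 in exposed cells, against 2124 ± 136 in the passage control. Its log2 ratio was 0.076 ± 0.13. ELOVL1 (chromosome 1), an elongase of very long saturated chains, read 594 ± 38.2 in exposed cells, against 718 ± 70.3 in the passage control, a log2 ratio of 0.16 ± 0.17. Both ratios were about as large as their error or smaller, and neither gene was called. ELOVL5 (chromosome 6), an elongase of polyunsaturated chains, had 2 probes that did not give the same value. The brighter probe read 201 ± 12.1 in exposed cells, against 281 ± 14.7 in the passage control. The other read 210 ± 21.3 in exposed cells, against 213 ± 11.6 in the passage control. Their log2 ratios were -0.058 ± 0.12 and 0.40 ± 0.17, so the direction for ELOVL5 depends on the probe. The authors' deposited table gave p-values of 0.635 and 0.155.

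**Figure D3:**
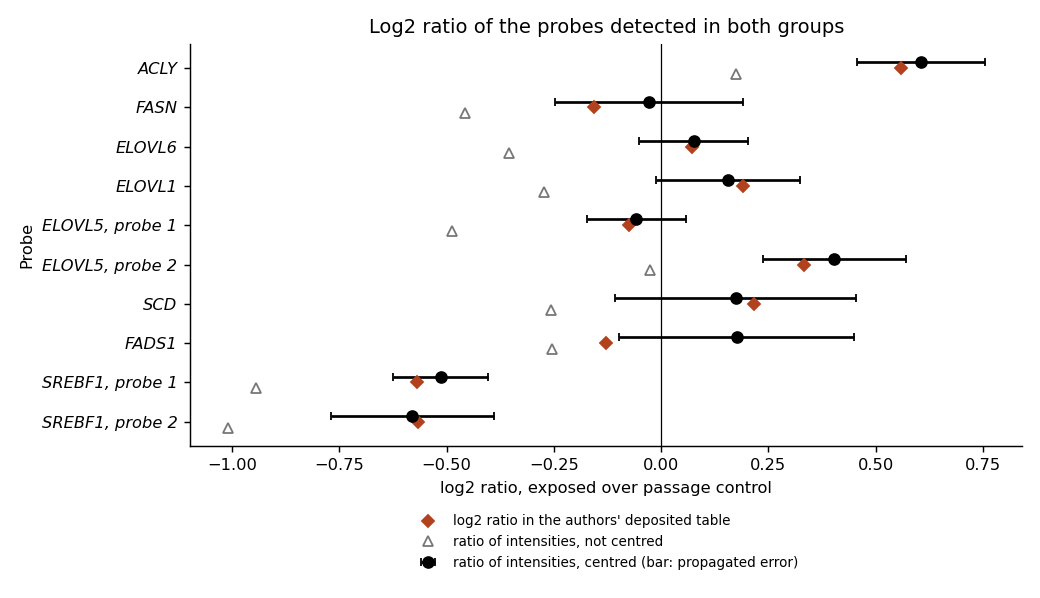
Log2 ratio of exposed over passage control cells for the 10 probes detected in both groups: centred ratio with its propagated error (black), log2 ratio in the authors' deposited table (red) and ratio before centring (open triangles). SREBF1 lies left of 0 on both probes and ACLY right of 0 in all 3 forms, while the others lie near 0 once centred, except the second ELOVL5 probe at 0.40.

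The desaturase genes gave weak signals. SCD (chromosome 10), which encodes the stearoyl-CoA desaturase that makes oleate, read 166 ± 22.9 in exposed cells, against 198 ± 27.3 in the passage control. Its log2 ratio of 0.17 ± 0.28 was within the error. FADS1 (chromosome 11), a desaturase of polyunsaturated fatty acids, read 123 ± 15.5 in exposed cells, against 146 ± 20.6 in the passage control. Its log2 ratio was 0.18 ± 0.27, whereas the authors' deposited table gave -0.13, so no direction can be given for FADS1. FADS2 (chromosome 11), which encodes the desaturase of the first step of that series, read 46.7 in exposed cells, against 54.2 in the passage control, and was detected in neither. The authors' deposited table lists for it a log2 ratio of 0.36 and a p-value of 0.0435 before adjustment, which was 0.380 when adjusted over all probes. At the errors of SCD and FADS1 a change of the size of that in SREBF1 would be less than 2 errors from 0, so the lack of a call there does not show equal levels.

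Among 15 measured genes of SREBP processing and other lipogenic regulators 1 rose and 1 fell, with a median log2 ratio of 0.12. Beside this, 3.11% of all genes tested were called higher and 2.57% lower. These lists, like the members, were chosen with earlier results of these data known. INSIG1, which retains the SREBP precursors in the endoplasmic reticulum and is itself a SREBP target, rose 1.93-fold (log2 ratio 0.95 ± 0.24). It read 384 in exposed cells, against 268 in the passage control, and its adjusted p was 0.00396. RXRA, the partner of many nuclear receptors including the liver X receptors that act on SREBF1, fell 1.70-fold (-0.76 ± 0.16). It read 593 in exposed cells, against 1356 in the passage control, with an adjusted p of 0.000249. As the mean of its probes the log2 ratio of RXRA was -0.61. The protease gene MBTPS1, whose product makes the first cut of SREBP precursors, had a log2 ratio of -0.42 ± 0.21, and STK11, a kinase upstream of AMPK, of -0.27 ± 0.12. Neither was called. Before centring the ratio of INSIG1 was 0.52 and that of RXRA -1.19. SREBF2, named outside the rule after its value was seen, had a log2 ratio of 0.0084 ± 0.24.

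Of 15 measured cholesterol genes that SREBP controls 3 rose and none fell, with a median log2 ratio of 0.33. The share called higher over all genes tested was 3.11%. Above the median brightness, where SQLE and MSMO1 lie, 9.05% of genes were called in either direction. SQLE, an enzyme of sterol synthesis, read 2014 in exposed cells, against 1628 in the passage control (log2 ratio 0.74 ± 0.15, adjusted p 0.00281). MSMO1, a later enzyme of that synthesis, had a log2 ratio of 0.68 ± 0.18, or 0.35 as the mean of its probes. MVD, an enzyme of the mevalonate pathway, was at 0.33 ± 0.11 and missed the limit. Whether this list differs from the 10 genes was not tested. Before centring, 10 of the 15 read lower in exposed cells, the median was -0.095, and the ratios were 0.31 for SQLE and 0.25 for MSMO1.

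Enzymes that supply acetyl-CoA and NADPH for fatty acid synthesis had a median log2 ratio of 0.37 over 11 measured genes, 1 of which rose. Over all genes tested 3.11% were called higher. PGD, a pentose phosphate enzyme that yields NADPH, read 6257 in exposed cells, against 5654 in the passage control (log2 ratio 0.58 ± 0.14, adjusted p 0.000650). TALDO1 (0.45 ± 0.095) and TKT (0.37 ± 0.060), which exchange sugars in the same pathway, did not pass. Both lay near the highest intensity on the array, 67388, TALDO1 at 67127 in exposed cells, against 66148 in the passage control, and TKT at 61338 in exposed cells, against 64063 in the passage control. The part of that upper end in their ratios was not tested. Before centring, 6 of the 11 genes read lower in exposed cells, and the ratio of PGD was 0.15.

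No call was made among 6 measured genes of other elongation and desaturation steps, which had a median log2 ratio of 0.069. For this and the next lists, the share called over all genes tested was 5.68%, with 2.57% called lower. The paralogues SCD5 and FADS3 had log2 ratios of 0.0033 ± 0.21 and 0.16 ± 0.13. CYB5B, which carries electrons, had 0.23 ± 0.22 and HSD17B12, the ketoacyl reductase of the elongation cycle, 0.063 ± 0.31. Another 12 genes of that list had no ratio, among them ACACB, ELOVL4 and TECR. On the side of fatty acid use, the uptake and activation protein gene SLC27A1 fell 1.37-fold (-0.45 ± 0.16, adjusted p 0.0172). It read 501 in exposed cells, against 924 in the passage control. The other 4 measured genes of activation, uptake and binding were not called, among them the acyl-CoA synthetase genes ACSL4 (0.82 ± 0.23) and ACSL1 (0.35 ± 0.21). SLC27A4, a fatty acid transport protein gene, read 91.0 ± 10.7 in exposed cells, where it was detected, against 80.8 ± 14.6 in the passage control, where it was not, and these ranges overlap. Of 12 measured fatty acid oxidation genes HADH, which encodes a mitochondrial dehydrogenase of beta-oxidation, fell 1.24-fold (-0.32 ± 0.11, adjusted p 0.0172). As the mean of its probes the log2 ratio of HADH was -0.24. The other oxidation genes were not called, among them DECR1 (-0.45 ± 0.26), ACADM (0.31 ± 0.19) and ACADVL (-0.15 ± 0.18), and the median over the list was -0.060. Before centring the ratio of SLC27A1 was -0.88 and that of HADH -0.75.

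**Figure D4:**
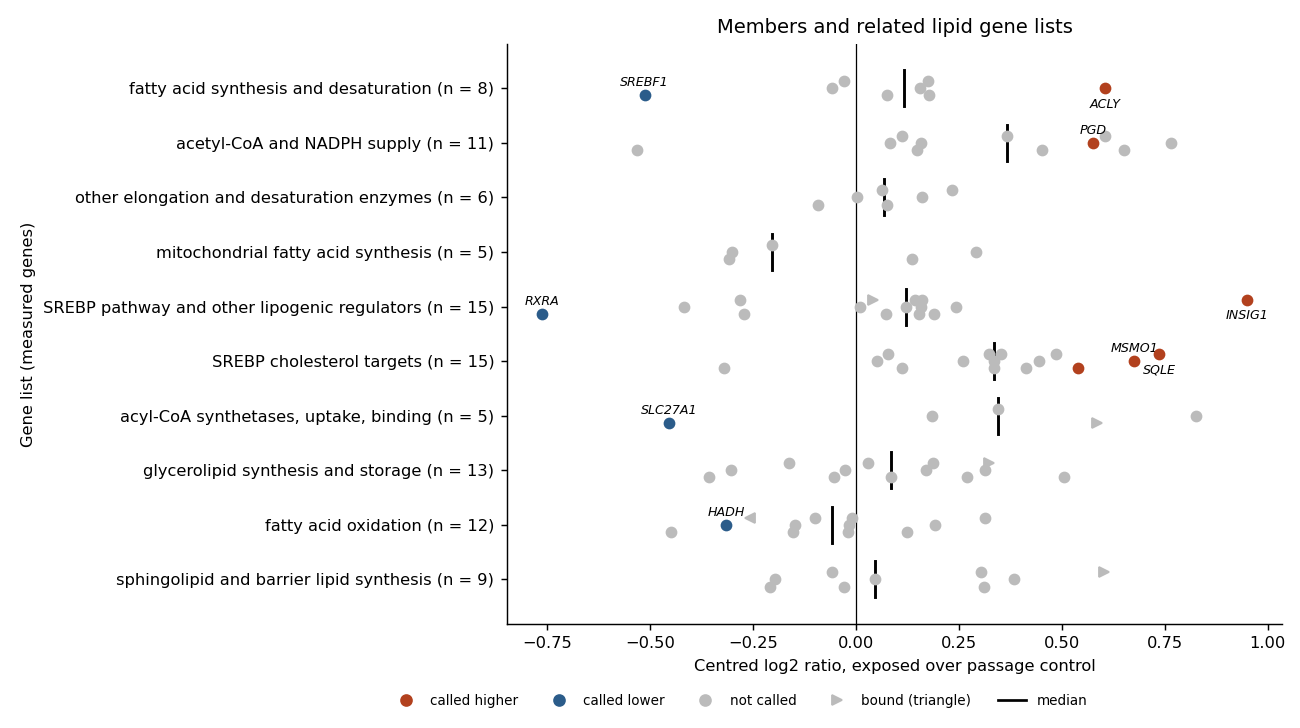
Centred log2 ratio of each measured gene in the members and 9 related lists, with called genes coloured and those described in the text also named. Triangles mark genes detected in 1 group alone. They are placed at their centred ratio to the other group's own reading or its lowest detected intensity, whichever was higher. A black bar marks the median of each list. The members hold 1 called gene on each side of 0, and the 3 called cholesterol targets all lie right of 0.

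In both groups 12 of 14 keratinocyte markers with a probe were detected, among them KRT5, ITGB4 and TP63, and none was called. DSC3 and LAMB3 were not detected. Of 6 adipocyte markers only LEP was detected, and ADIPOQ, PLIN1, LPL, FABP4 and PLIN4 were not. Of 7 sebocyte markers MUC1 and SOAT1 were detected, both also known outside sebocytes, and MUC1 was called lower. Of 7 melanocyte markers PMEL was detected in both groups and MITF in exposed cells alone. Of 10 fibroblast markers LUM, COL1A1 and PDGFRB were detected in both groups and COL1A2 in exposed cells alone, while VIM, DCN and COL3A1 were among those detected in neither. Of 9 leukocyte markers CD14, which was called lower, and CD68 were detected, and PTPRC was not. Of 5 endothelial markers only CDH5 was detected. Before centring, the summed intensity of each of these lists was lower in exposed cells, as the median over all probes was. It was 81146 in exposed cells, against 112045 in the passage control, for keratinocyte markers and 1662 in exposed cells, against 2312 in the passage control, for sebocyte markers. In a bulk sample fewer cells of a type and less RNA per cell cannot be told apart.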

How the data were processed

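Total RNA of HaCaT cells was amplified in vitro and its copies labelled with the dye Cy5, per the labels' protocols, and read on 1-colour arrays. The sources used here name no scanner, normalization method or genome build. For each probe the authors deposited 1 normalized linear intensity per group, its error and a detection p-value. Their deposited table also holds a log2 ratio for 14401 probes and a p-value of the comparison, whose test is not stated, per the file headers. A second deposited copy of the intensities differed by at most 5.00e-07. The deposited log2 ratio exceeded the log2 ratio of intensities by 0.42 at the median of the 9915 probes detected in both groups.

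The log2 ratio of intensities was centred on its median over these probes. Detection meant a detection p-value under 0.05. A probe detected in its brighter group alone, after centring, gave a bound. The bound was taken against the other group's own reading or its lowest detected intensity, whichever was higher. Of 30968 probes 22935 named 1 symbol. Symbols were checked or updated through gene identifiers for 19795 of them with RefSeq's table for GRCh38.p14, which gave names and promoter sequences. The probe with the highest mean intensity stood for a gene, and every probe of the 10 genes is given. Deposited p-values were adjusted by the Benjamini-Hochberg method over 7680 genes. Each group was 1 culture line, which limits what the comparison can show. The median error of a log2 ratio, propagated from the deposited errors, was 0.20. The code was tested on simulated data. The members, the lists and the rule for named genes (all members, and from each list the called genes and otherwise the smallest adjusted p up to 4 genes) were chosen with earlier results of these data known. Some genes that this rule picks are not reported here. Analyses used Python 3.11.15, numpy 2.4.6 and pandas 2.3.3. Alternatives were other centrings, quantile normalization, an offset of 32, the deposited log2 ratio, other choices of probe, a detection limit of 0.01, a filter on dim genes, adjustment over all probes and a 1.5-fold limit.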

Additional observations from a re-analysis of the deposited data

Results flagged for a closer look

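Outside the values used above, a probe that names SCD together with AC126365.5 was detected in exposed cells and not in passage control cells. With deposited errors after ±, it read 73.2 ± 16.8 in exposed cells, against 69.9 ± 10.00 in the passage control, and the 2 intensities lay within these errors. The authors' deposited table gave it a log2 ratio of 0.86 with a p-value of 0.186. The probe that names SCD alone was detected in both groups, with a log2 ratio of 0.17 ± 0.28.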

How the results depend on the processing

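ACLY and SREBF1 were processed in 11 alternative ways. The calls use the deposited p-values, which no centring, normalization, offset or source of the ratio can change, so these alternatives bear on direction and size and do not test the calls. ACLY kept its direction in all, with a log2 ratio from 0.18 without centring, about 1 error from 0, to 0.61, and its adjusted p was 0.0120 to 0.0247 over the other choices of probes and genes tested. SREBF1 kept its direction in all, from -0.94 without centring to -0.51, with an adjusted p from 2.26e-05 to 5.24e-05. With a limit of 1.5-fold added, SREBF1 (log2 ratio -0.51) was no longer called, which left 0 members lower and 1 higher, and the related lists had 3 genes higher and 1 lower in place of 5 and 3, with PGD, SLC27A1 and HADH among those no longer called. That limit also left 129 genes called higher and 96 lower on the whole array, against 239 and 197. With genes above the median brightness only, the related lists had 8 genes called higher, MVD and TALDO1 among those added, since fewer genes were tested. Under that filter 217 genes were called higher and 197 lower among 3845 on the whole array. Without centring the median over the members was -0.31, and the log2 ratio turned to -0.35 for ELOVL6, -0.27 for ELOVL1, -0.26 for SCD and -0.25 for FADS1. With the deposited log2 ratio FADS1 was at -0.13. ELOVL5 was at 0.17 as the mean of its probes and at 0.40 on the probe with the smallest p-value. Of 85 values of single members under these alternatives 7 had the opposite sign. Of all 436 called genes, 54.8% were higher with centring and 43.1% without. No paired analysis was possible because 1 combined value per group was deposited, and for the same reason no replicate could be left out. Errors of the members' log2 ratios ran from 0.11 for SREBF1 to 0.28 for SCD, so a change of the size seen in SREBF1 could be missed in SCD or FADS1. With only genes above the median brightness, ELOVL5, SCD and FADS1 had no value.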

Other observations

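Genes that pass fatty acids on to other lipids showed no call. The share called over all genes tested was 5.68%, and at that share lists as short as those below can hold no called gene. Of 13 measured genes of glycerolipid synthesis and storage none was called, with a median log2 ratio of 0.084. AGPAT1, an acyltransferase of phosphatidic acid synthesis, had the smallest p-value of these in the authors' deposited table, 0.0106 before adjustment and 0.134 after, with a log2 ratio of -0.30 ± 0.18. It read 179 in exposed cells, against 298 in the passage control. LPIN1, a phosphatidate phosphatase gene, had 0.27 ± 0.20 and the acyltransferase gene AGPAT3 0.31 ± 0.27. LPCAT1, a lysophospholipid acyltransferase gene, read 75.8 ± 16.1 in exposed cells, where it was detected, against 53.8 ± 7.75 in the passage control, where it was not, and was not called. Among 9 measured sphingolipid and barrier lipid genes none was called either, with a median of 0.046. KDSR, a reductase of early ceramide synthesis, had 0.38 ± 0.20 and SPTLC2, a subunit of its first enzyme, -0.059 ± 0.18. UGCG, which makes glucosylceramide, read 92.0 ± 18.0 in exposed cells, where it was detected, against 75.6 ± 9.03 in the passage control, where it was not, and these ranges overlap. In the separate mitochondrial pathway of fatty acid synthesis none of 5 measured genes was called, with a median of -0.20. CBR4 had -0.20 ± 0.25, HSD17B8 -0.31 ± 0.24, MCAT -0.30 ± 0.21 and MECR 0.29 ± 0.45.

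Of the 10 genes 4 lie on chromosome 17, ACLY, ACACA, FASN and SREBF1, per the annotation in the authors' deposited table. The 520 measured genes of that chromosome had a median log2 ratio of 0.024, and 21 of them were called higher and 11 lower (6.15%). ACLY and SREBF1, called in opposite directions, are among these. FADS1 and FADS2 lie on chromosome 11, where the median over 496 measured genes was -0.024.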
